A study of Homo sapiens with 4 samples.

Results

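ATF3 peaks were examined at CTH, AHCY, MAT2A and MTR, which encode enzymes that carry sulfur between methionine, homocysteine and cysteine. The peaks of the 4 deposited lists were merged wherever they shared at least 1 bp, and the regions that overlapped one of these genes in hg19, or the 20 kb on each side of it, were taken. This gave 12 of the 44826 regions on chromosomes 1 to 22 and X, with 5 at AHCY, 3 at MAT2A, 2 at CTH and 2 at MTR. The peaks come from CUT&Tag, in which an antibody, here against ATF3, brings a transposase to chromatin that cuts and tags the DNA nearby. The cells were SW480, an established colorectal cancer line, maintained with fetal bovine serum and antibiotics and with no engineered change named in the labels, and about 100000 cells went into a library. They were kept for 24 h in cystine-restricted medium (2 libraries, CR1 and CR2) or in full medium (2 libraries, FM1 and FM2). The labels call the 2 libraries of a medium separate samples and say nothing more of their origin, so the p-values reflect the spread among these samples alone, and that spread may be technical. Neither a library made without the ATF3 antibody nor RNA levels were analysed here, so the identity of the cells was not tested against marker genes.

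Methionine adenosyltransferase 2A, the product of MAT2A, joins methionine to the adenosyl group of ATP and so makes S-adenosylmethionine, the cell's main methyl donor. Methyl transfer leaves S-adenosylhomocysteine, which AHCY splits into adenosine and homocysteine. MTR, methionine synthase, returns homocysteine to methionine with a methyl group from folate and a cobalamin cofactor, which closes the methionine cycle. The alternative fate of homocysteine is transsulfuration, in which cystathionine beta-synthase makes cystathionine and CTH, cystathionine gamma-lyase, cleaves it to cysteine. This route can supply cysteine when cystine, its oxidised form in the medium, is scarce. ATF3 is a stress-induced bZIP factor that binds CRE-like and AP-1-like sites as a dimer.

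The 250 bases before the start site of 3 genes are shown because at least 2 libraries had a peak over the given start of CTH and MAT2A, or at the distance of an inner start of AHCY. The AHCY window was chosen with its motif match known. The window before the third AHCY start, at whose distance 3 libraries had a peak, is not shown, since it lies downstream of the second start. They are from the RefSeq promoter table, 5′ to 3′ on the strand of the gene, in build GRCh38.p14, and all 4 genes were matched by symbol. The CTH sequence is chr1:70411018-70411267 (plus strand), the AHCY sequence chr20:34303356-34303605 (minus strand), before the second of its 3 listed starts, and the MAT2A sequence chr2:85538918-85539167 (plus strand). Capitals mark motif matches.
CTH promoter: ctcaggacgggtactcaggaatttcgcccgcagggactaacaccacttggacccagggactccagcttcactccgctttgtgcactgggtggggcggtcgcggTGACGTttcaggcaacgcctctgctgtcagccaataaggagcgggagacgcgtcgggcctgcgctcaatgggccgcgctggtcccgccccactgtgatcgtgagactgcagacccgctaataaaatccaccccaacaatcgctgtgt
AHCY inner promoter: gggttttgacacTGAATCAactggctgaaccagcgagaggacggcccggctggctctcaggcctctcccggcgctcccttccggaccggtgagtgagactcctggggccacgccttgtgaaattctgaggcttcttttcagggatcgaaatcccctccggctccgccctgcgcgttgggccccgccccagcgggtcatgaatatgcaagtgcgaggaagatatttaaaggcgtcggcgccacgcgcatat
MAT2A promoter: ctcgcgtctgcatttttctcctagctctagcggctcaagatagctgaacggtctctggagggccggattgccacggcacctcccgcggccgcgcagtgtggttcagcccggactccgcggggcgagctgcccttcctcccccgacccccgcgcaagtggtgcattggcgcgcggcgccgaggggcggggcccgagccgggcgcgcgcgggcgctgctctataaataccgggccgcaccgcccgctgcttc

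The motifs searched on both strands in these 250 bases were the CRE TGACGTCA, its core TGACGT, which also lies within the full CRE, the AP-1 site TGANTCA, and TGATGNAA, the composite C/EBP-ATF site known as CARE. The CTH promoter held the core TGACGT from 147 to 142 bases before the start, a motif present in 7.10% of the 35116 promoters of the table. The inner AHCY promoter held TGAATCA, a match to the AP-1 site, from 238 to 232 bases before the start, and this motif was present in 6.57% of promoters. Counted from the outermost RefSeq start, this match lies 8209 to 8215 bp inside, and the AHCY peak region nearest to it spans 8314 to 8523 bp from the given hg19 start, so by these distances the match is outside that region. None of the 7 promoters listed for the 4 genes held the full CRE or the CARE, which were present in 1.65% and 3.14% of promoters. The MAT2A promoter, both MTR promoters and the other AHCY promoters held no match to any of the motifs. A match is a string of letters in this window and not a measured site of binding. Promoters of these genes had a GC content of 60.4% to 74.4%, against a median of 58% over the table.

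**Figure D1:**
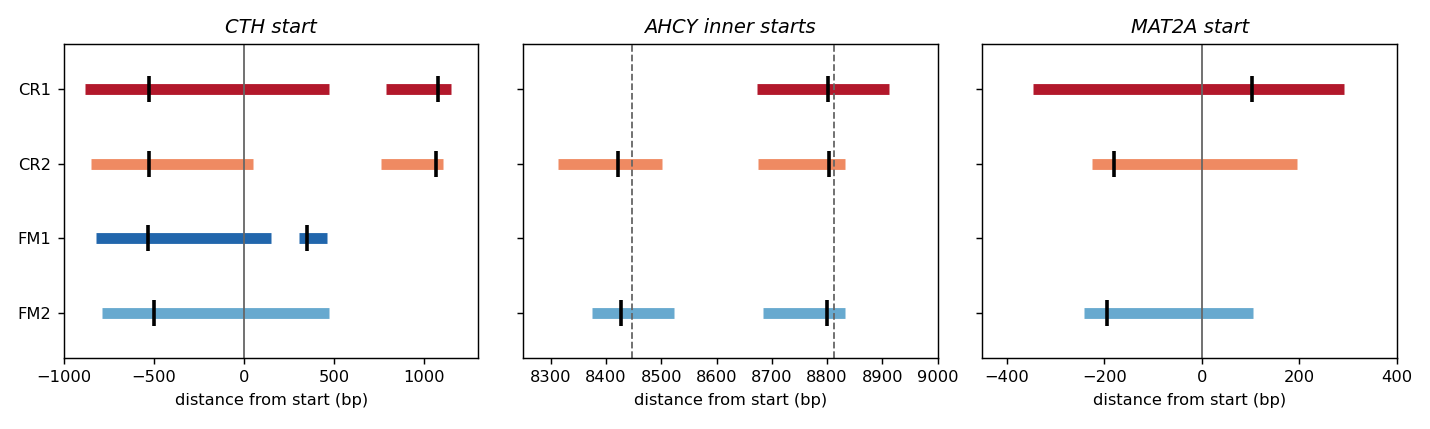
Extent of each listed ATF3 peak (bar) and its summit (black tick) in the 4 libraries, against the distance in bp from the hg19 start given for the gene (grey line at 0), in the direction of transcription. Dashed lines mark 8447 and 8812 bp, the distances of 2 inner AHCY starts from the outermost start in RefSeq. The CTH summits of the 4 libraries lie between 535 and 501 bp before the start, and FM1 has no peak in the AHCY and MAT2A panels.

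Heights are given as the summit pileup, the number of overlapping tags at the highest point of a peak, over the genome background, the pileup expected if the tags of a library were spread evenly. Both were worked out from the fold enrichment and the −log10 p that the authors list. The background, which grows with the number of tags used, was 1.30 tags in CR1, 1.08 in CR2, 1.11 in FM1 and 1.32 in FM2. The lists give no read counts, so it was not compared with sequencing depth. The lowest pileup listed was 6 or 7 tags in each library, and a region missing from a list fell short of the caller's criteria there, which does not show that ATF3 was absent. A region was called gained if both cystine-restricted libraries and neither full-medium library had a peak in it, and lost in the reverse case. Of the 12 regions 2 were gained, 1 at CTH and 1 at MTR, against 12.7% of all regions, and 0 were lost, against 0.386%. A peak in all 4 libraries was found in 3 regions, 1 each at CTH, AHCY and MAT2A, against 23.0% of all regions, and 4 regions had a peak in 1 library only, against 46.4%. The windows held 8 and 9 peaks in CR1 and CR2 and 6 and 7 in FM1 and FM2, with means of 8.5 ± 0.71 and 6.5 ± 0.71 (SD, n = 2 each). The ratio of the means was 1.31, and over chromosomes 1 to 22 and X it was 1.73. These are numbers of peaks and not of regions. In FM1, the CTH region and the AHCY region found in all 4 libraries each held 2 peaks. With peaks of a −log10 q of at least 5 only, the windows held 8 regions, of which 4 were gained, while over all regions 4342 of 26836, or 16.2%, were gained. The added ones in the windows were the MAT2A start region and an inner AHCY region, where the full-medium peak, in FM2, had a −log10 q of 3.15 and 3.297.

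**Figure D2:**
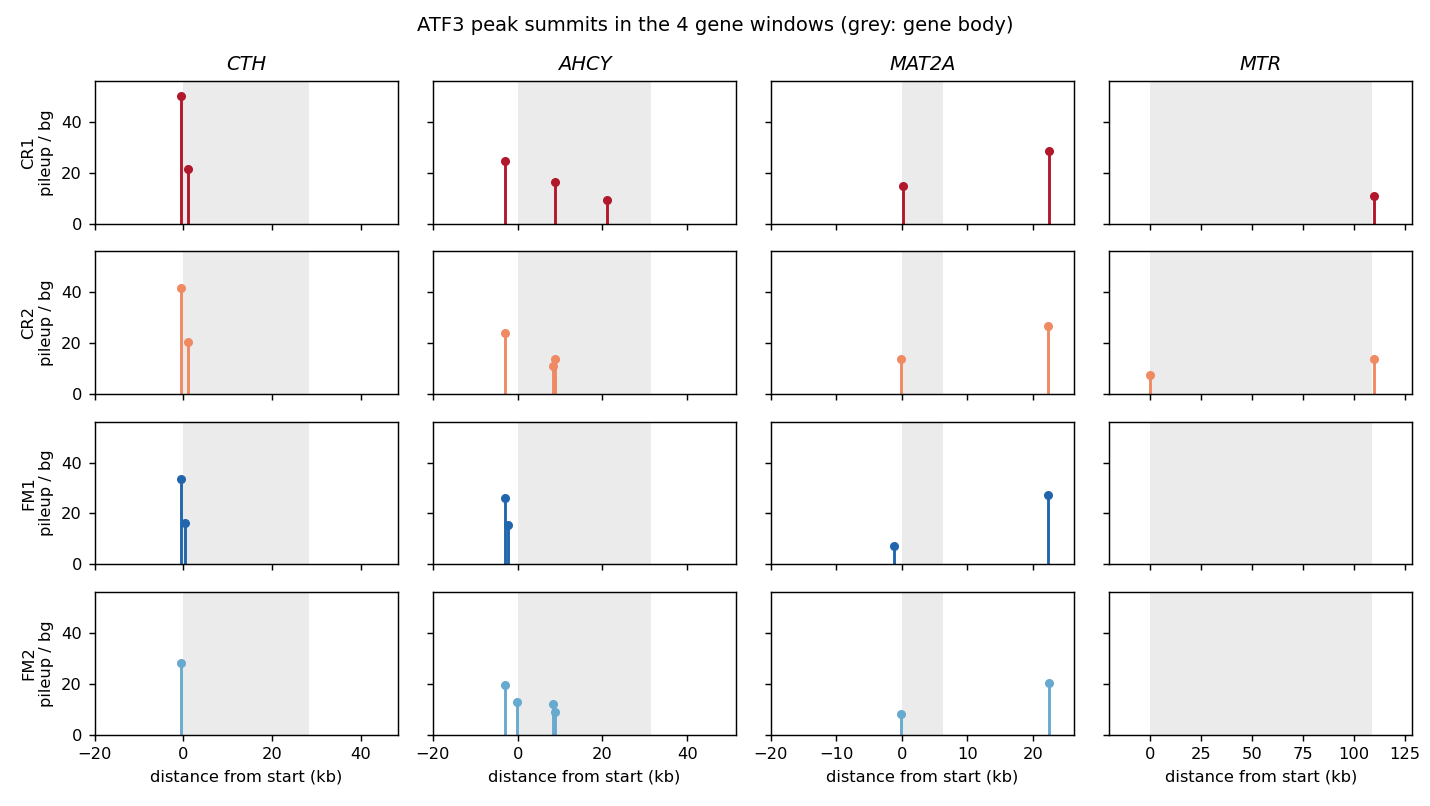
Each stem is the summit of a listed ATF3 peak, at its distance in kb from the hg19 gene start in the direction of transcription. Its height is the summit pileup over the genome background (bg), with a row for each library, a column for each gene and the gene body in grey. The highest stem in every library is the one before the CTH start, and the MTR column is empty in both full-medium rows.

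CTH carried the highest ATF3 peak of the 4 genes in every library. Its start region lay on chromosome 1 from 70876019 to 70877373 (hg19), reaching from 882 bp before the given start of the gene to 472 bp inside it. The height was 50.1 in CR1, 41.5 in CR2, 33.4 in FM1 and 28.1 in FM2. Both cystine-restricted libraries were above both full-medium libraries. That order was seen at 72.8% of the 10331 regions that had peaks in all 4 libraries, so it was the usual one. The means were 45.8 ± 6.1 and 30.8 ± 3.8 (SD, n = 2 each), a log2 change of 0.57 ± 0.19 (SE) or 1.49-fold. The median change over those 10331 regions was 0.53, with an interquartile range of 0.29 to 0.78, and the CTH region stood at percentile 54.4. The 4 comparisons of single libraries across the media gave 0.31 to 0.84 on the log2 scale, against 0.27 between CR1 and CR2 and 0.25 between FM1 and FM2, so the difference exceeded the spread within each medium. A two-sided exact permutation test gave a p of 0.33, the smallest value possible with 2 libraries against 2, and its Benjamini-Hochberg adjusted value over the 3 regions tested was 1.

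The higher pileup at the CTH start went with a higher background around it. The local background was 4.53 and 3.89 times the genome background under cystine restriction and 2.996 and 2.39 times in full medium, a log2 change of 0.65, against a median of 0.37 over regions in all 4 libraries. The authors' fold enrichment divides by this local background after a constant is added to both pileup and background. It was 9.59 and 8.82 under cystine restriction and 8.81 and 9.16 in full medium. These folds overlapped between the media, and their log2 change was 0.035, against a median of 0.21. The log2 change of the height was 0.57, below the 0.65 of the local background, so the sign of the fold change rests on the constant. The length covered by peaks did not follow the height either, with 1355 and 904 bp under cystine restriction and 1129 and 1261 bp in full medium, a log2 change of −0.11. Whether the local background carries part of the peak itself was not tested.

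The place of the CTH summit was nearly the same in all libraries. It lay 530 bp before the given start in both cystine-restricted libraries, 535 bp in FM1 and 501 bp in FM2. The range of 34 bp compares with a median of 124 bp over regions in all 4 libraries. These summits were farther from the start than the printed promoter window reaches. By its height averaged over the libraries, 38.3, the region stood at percentile 78.7 of regions in all 4 libraries, and by its width of 1355 bp at percentile 90.7.

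A second CTH region was gained. It lay inside the gene on chromosome 1 from 70877662 to 70878051, from 761 to 1150 bp after the given start, and whether this is exon or intron was not analysed here. The height was 21.6 in CR1 and 20.3 in CR2, with summits 1077 and 1065 bp after the start, and no full-medium peak overlapped it. Its mean height of 20.9 stood at percentile 90.5 of the 5685 gained regions, whose median was 12.01. The authors' −log10 q was 8.04 and 7.005, and the fold 4.18 and 4.51, at a local background of 4.58 and 3.78 times that of the genome. These folds were below the medians of their lists, 5.24 in CR1 and 5.28 in CR2. By −log10 p the peaks stood at percentiles 55.2 and 55.0 of those lists. It was separated by 288 bp from the CTH start region, whereas 5.08% of gained regions had a region of all 4 libraries within 1000 bp. FM1 had a separate peak, with a height of 16.3, whose summit lay 350 bp after the start, in the inner part of the start region. Full-medium signal inside CTH was thus listed nearer to the start and not at the place of the gained region. The undivided start peaks of CR1 and FM2 spanned the place of this FM1 peak as well, so a listed peak there was not particular to full medium.

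**Figure D3:**
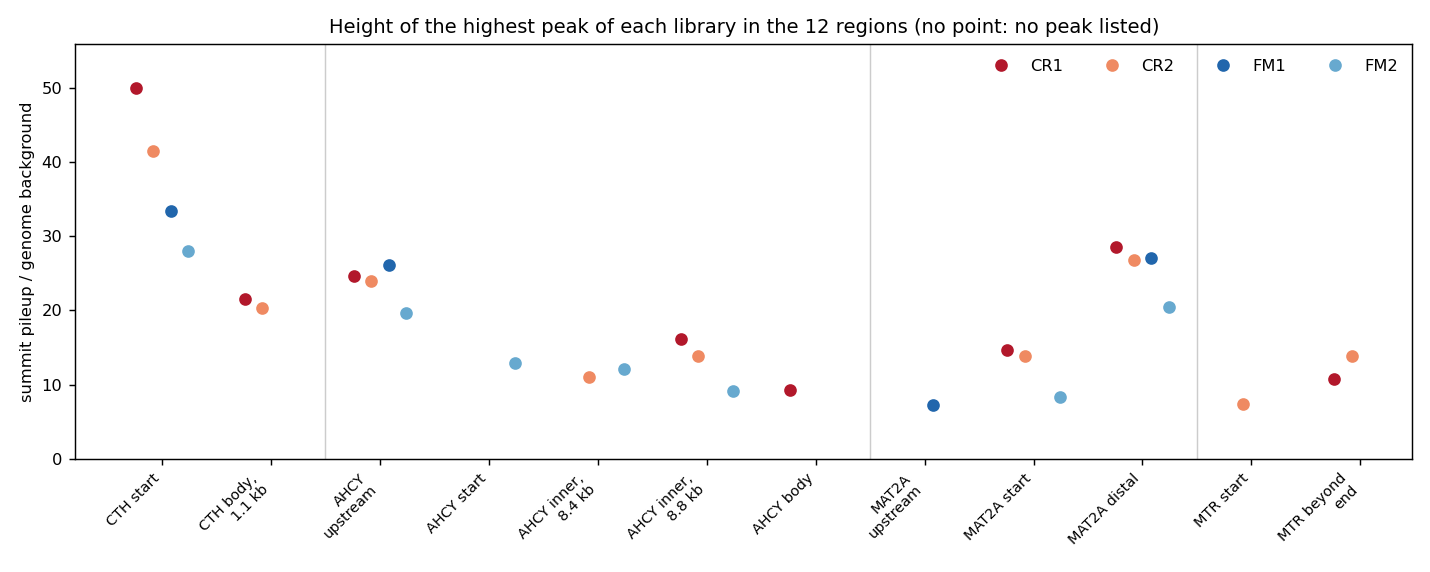
Summit pileup over the genome background of the highest peak of each library in each of the 12 regions, with a colour for each library and no point where no peak was listed. The CTH start region is the highest in every library, with the red cystine-restricted points above the blue full-medium points, while FM1 lies above both cystine-restricted points at the AHCY upstream region and between them at the MAT2A distal region.

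AHCY, whose product clears the methylation by-product S-adenosylhomocysteine, had the most regions and no gained one. The region found in all libraries lay on chromosome 20 from 32901872 to 32902702, between 3094 and 2264 bp upstream of the given start. The height was 24.7 in CR1, 23.99 in CR2, 26.2 in FM1 and 19.7 in FM2. The highest and the lowest value were both from full medium, and the groups overlapped. The means were 24.3 ± 0.47 and 22.97 ± 4.6 (SD, n = 2 each), with a log2 change of 0.097 ± 0.21 (SE), at percentile 12.4 of the changes over regions in all 4 libraries. The single comparisons across the media ran from −0.13 to 0.32 and the full-medium libraries differed from each other by 0.41, so the difference was smaller than the spread within full medium. By a two-sided exact permutation test, p was 1. The change was −0.088 for the authors' fold over the local background and −0.11 without FM2.

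Further AHCY peaks were found well inside the gene, in 3 libraries. A region on chromosome 20 from 32890696 to 32890935 had a height of 16.2 in CR1 and 13.8 in CR2 and 9.10 in FM2. FM1 had no peak there, and the full-medium value that was listed lay below both cystine-restricted values. A neighbouring region from 32891085 to 32891294 had a height of 11.1 in CR2 and 12.1 in FM2, with no peak in CR1 and FM1. The summits of the first region lay 8802, 8804 and 8799 bp inside the given start and those of the second 8422 and 8427 bp. In RefSeq, AHCY has inner start sites 8812 and 8447 bp inside its outermost one, in GRCh38.p14. The peak distances are measured in hg19 from the start given there, the builds were not aligned, and whether that start is the outermost one of RefSeq was not tested.

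The remaining AHCY regions were each seen in 1 library. The region over the given start, from 32899396 to 32899769, had a height of 12.9 in FM2. Its −log10 q was 3.36, at percentile 19.0 of that list by −log10 p. A region in the gene body from 32878463 to 32878612 had a height of 9.25 in CR1, with a −log10 q of 3.98. The given start of AHCY was thus the only one of the 4 at which the listed peak came from full medium alone.

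MAT2A, which makes S-adenosylmethionine, had a peak over its start in 3 libraries. The region lay on chromosome 2 from 85765754 to 85766392, from 347 bp before the given start to 291 bp after it. The height was 14.6 in CR1 and 13.8 in CR2 and 8.34 in FM2. The −log10 q was 7.70 and 6.23 in the cystine-restricted lists and 3.15 in the full-medium list, where the peak stood at percentile 16.9. FM1 had no peak over the start but one between 1304 and 1044 bp upstream, with a height of 7.23. That peak was at percentile 0.857 of its list, among the weakest listed. No test was run on the start region, since a library without a listed peak gives no value.

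The highest region of the MAT2A window lay 15664 bp beyond the end of the gene, on chromosome 2 from 85788067 to 85789017. It is called distal only by its distance from MAT2A. In the RefSeq gene order the next protein-coding gene on that side is GGCX, the gamma-glutamyl carboxylase of the vitamin K cycle. Whether the region lies at the start of GGCX, and to which gene it belongs, was not analysed here. The height was 28.5 in CR1, 26.8 in CR2, 27.1 in FM1 and 20.5 in FM2. FM1 lay between the cystine-restricted libraries, so the groups overlapped. The means were 27.6 ± 1.2 and 23.8 ± 4.7 (SD, n = 2 each), with a log2 change of 0.23 ± 0.21 (SE) at percentile 20.8 and a two-sided exact permutation p of 0.67. The full-medium libraries differed from each other by 0.40, more than the media did. Without FM2 the change was 0.027, without FM1 it was 0.43, for the fold over the local background it was 0.097, and for the covered length it was −0.080.

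MTR, which remakes methionine from homocysteine, had no full-medium peak in its window of 148701 bp. The start region on chromosome 1 from 236958491 to 236958916 was listed in CR2 only, with a height of 7.38, a pileup of 8 tags and a summit 19 bp after the given start. The gained region lay from 237068487 to 237069062, beginning 1206 bp beyond the end of the gene. Its height was 10.8 in CR1 and 13.8 in CR2, and both summits fell on the same base, 237068610. Its mean of 12.3 was close to the median of gained regions, at percentile 52.6. The number of peaks in the window was 1 and 2 under cystine restriction and 0 and 0 in full medium, with a two-sided exact permutation p of 0.33 and an adjusted p of 1 over the 4 windows. The exact p for the numbers of peaks in the CTH, AHCY and MAT2A windows was 1 each. At CTH and at AHCY, 2 peaks of FM1 that lay in the same region were counted separately. The MTR region was gained far from shared signal, since the nearest region of all 4 libraries was 735707 bp away, against a median of 52921 bp for gained regions.

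**Figure D4:**
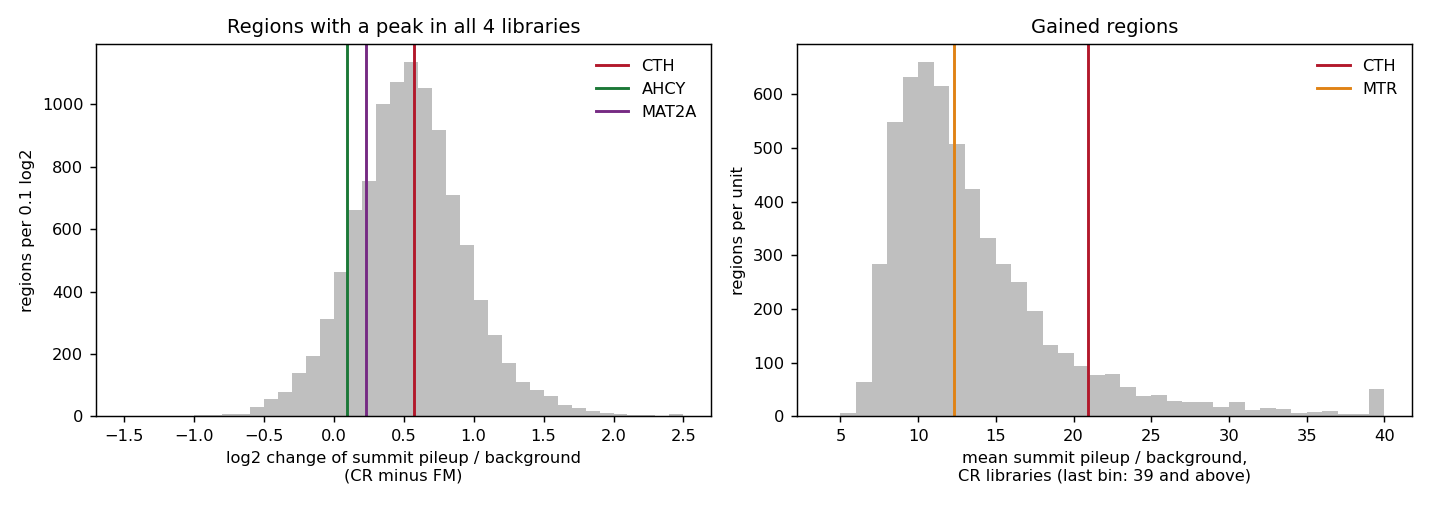
Left, number of regions with a peak in all 4 libraries (n = 10331) by the log2 change in height, cystine-restricted (CR) minus full medium (FM), with the CTH start, AHCY upstream and MAT2A distal regions as lines. Right, number of gained regions (n = 5685) by the mean height in the cystine-restricted libraries, with the CTH and MTR gained regions as lines; values beyond an axis are counted in its outermost bin. CTH is near the middle on the left, at 0.57, with AHCY and MAT2A at 0.097 and 0.23 below the median of 0.53, and on the right CTH is in the upper tail and MTR near the median.

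Among the regions found in all libraries, the order of mean height was CTH start (38.3), MAT2A distal (25.7) and AHCY upstream (23.6), against a median of 22.2 over all such regions. This order held within each library, but the ranges over libraries overlapped between MAT2A and AHCY, and the lowest CTH value, 28.1 in FM2, was below the highest MAT2A value, 28.5 in CR1. Local background at these regions had means of 3.45, 3.01 and 3.80 times the genome background and a median of 2.55 over regions in all 4 libraries. The members farthest from their genes were the MAT2A distal region, 15.7 kb away, and the AHCY upstream region, 2.26 kb away. The nearest regions left out by the 20 kb limit were 23.99 kb from AHCY, with a height of 10.8 in FM1 only, and 32.2 kb from MAT2A, with a height of 7.71 in CR1 and 8.13 in FM1. The nearest ones to CTH and MTR outside the limit were 56.1 and 170 kb away. The other genes of the cycle and of transsulfuration were not analysed here.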

How the data were processed

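ATF3 CUT&Tag was deposited for 4 SW480 libraries, 2 for each medium, as 1 peak list a library. The submitters' processing notes name the build hg19 and the tools MACS2 2.2.7.1, BWA 0.7.17, fastp 0.19.7 and bcl2fastq 2.17, with caller options not given in the sources used here. The deposited lists hold, for each peak, its position and summit, a score in whole numbers that follows the q-value, and the −log10 of p and of q. They also hold a fold enrichment (a ratio of summit to expected local pileup, with a constant added to each). The files give no read counts. The whole-number pileup and the background that reproduce both the fold and the Poisson −log10 p were computed, and in every list 100% of peaks were matched, with a tolerance of 0.1% of the −log10 p. The lowest background of a list was taken as its genome background. Regions were formed by merging, and the positions of the genes were those given with the rule. Recovery and merging were tested on simulated data. Log2 heights and peak numbers were compared by two-sided exact permutation tests over libraries (smallest p 0.33) with Benjamini-Hochberg adjustment. Values were given for regions in all 4 libraries, gained or lost, nearest a start, or highest in a window. The genes, lists and tests were chosen with earlier results of these data known. As alternatives, a minimum −log10 q of 5, equal numbers of top peaks, other windows (5 and 50 kb), a 50% reciprocal overlap, other measures of height, leaving out each library, and a replicate block were run. Same-numbered libraries did not deviate together. Python 3.11.15, numpy 2.4.6, scipy 1.17.1, pandas 2.3.3 and matplotlib 3.10.9 were used.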

Additional observations from a re-analysis of the deposited data

How the results depend on the processing

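The CTH start region was higher under cystine restriction in each alternative run except the covered length, where the log2 change was −0.11, and the MAT2A distal region likewise, with −0.080. For the fold over the local background the change was only 0.035 at CTH and 0.097 at the MAT2A distal region, and the media overlapped at both. The AHCY upstream region was at −0.088 for the fold over the local background and at −0.088 within pair 1 of the replicate block. Leaving out each library in turn gave 0.44 to 0.71 for CTH, 0.027 to 0.43 for MAT2A and −0.11 to 0.30 for AHCY, where omitting FM2 turned the sign. Within the same-numbered pairs (replicate block) the changes were 0.58 and 0.57 for CTH and 0.072 and 0.39 for MAT2A, and 0.28 in pair 2 for AHCY. The deviations of same-numbered libraries had a correlation of 0.012 over regions, and the numbers were not taken to pair them. A window of 5 kb leaves the MAT2A distal region out. The windows had 2 more peaks per cystine-restricted library, and 0.5 to 3 more over the alternatives. In the windows 4 regions were gained with a minimum −log10 q of 5, 2 to 4 with a library left out, and 5 and 3 in pairs 1 and 2 of the replicate block; 0 to 1 were lost with a library left out and 1 in each pair. Over all regions, 1840 were gained and 752 lost with equal numbers of top peaks, 4342 were gained and 85 lost with the minimum −log10 q of 5, and 1131 lost with a 50% reciprocal overlap. With a library left out 7670 to 15455 were gained and 358 to 2812 lost, and in pairs 1 and 2 of the replicate block 19089 and 14594 were gained and 2566 and 4246 lost; fewer libraries are then required. Apart from that, the cause was not tested. The MTR start peak of CR2 stood at 8 tags, where the lowest pileup listed in CR2 was 6; what depth would be needed to list it in the other libraries was not tested.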

Other observations

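The MAT2A distal region had its summits in 2 places that did not go with the medium. CR2 and FM1 had it 22263 and 22233 bp after the given MAT2A start, and CR1 and FM2 had it at 22515 and 22458 bp. The range of 282 bp compares with a median of 124 bp and an upper quartile of 324 bp over regions in all 4 libraries.

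FM1 had a pair of peaks, separated by a gap, in both the CTH start region and the AHCY upstream region, and it was the library with no peak over the MAT2A start and none in either inner AHCY region. Its second peak in the AHCY upstream region had a height of 15.4, with the summit 2314 bp upstream of the given start.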
